A study of Mus musculus with 6 samples.

Results

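Genes of interferon reception, interferon signalling and the antiviral response were followed by RNA sequencing in anterior cingulate cortex (ACC), which lies at the inner face of the frontal lobe, taken from mice of the inbred BALB/c strain. The set was defined by symbol in the deposited count table and comprised 33 of its 45777 genes, all of which were found. 15 of them act in signalling (4 receptor chains, 3 Janus kinases, Stat2, Socs1 and 6 interferon regulatory factors) and 18 are effectors. The immunity-related GTPases and guanylate-binding proteins (below, the interferon-inducible GTPases) and the MHC class I genes do not belong to the set. The same cytokines induce them. The GTPase genes Mx1 and Mx2 do belong to it. 3 libraries came from mice that underwent social defeat stress on 5 days (smSDS), in which a mouse meets a larger, attacking resident and is defeated, and 3 from mice with no stress (NS). No other genotype or agent is named for either group, and the age of the mice and whether each library was 1 animal are not stated, so the p-values measure the spread between these libraries, which may be technical.

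Type I interferons bind the receptor pair IFNAR1 and IFNAR2, and interferon gamma binds IFNGR1 and IFNGR2. The receptors carry Janus kinases (TYK2 and JAK1, or JAK1 and JAK2) that phosphorylate STAT proteins. After type I interferon, STAT2 and IRF9 act in a complex that binds the interferon-stimulated response element (ISRE) in the promoters of antiviral genes, while interferon gamma acts through the GAS element. In the brain, microglia, endothelial cells, astrocytes and neurons can all respond, and in bulk tissue fewer cells of a type and less RNA per cell cannot be told apart.

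The promoter windows of these genes show which of them carry the ISRE letters near their start. RefSeq windows (GRCm38.p6) from 250 bases before to 50 bases after each annotated start were at hand for 28 of the 33 members; Usp18, Mx1, Mx2, Ifi27 and Rtp4 had none. The ISRE was searched on both strands as GAAA and again GAAA with any 2 bases between them (TTTC and TTTC when read on the other strand), and was found in 14 of the 28 members (50%), in 11 of 13 effectors (84.6%) and in 3 of 15 signalling genes (20%), against 3.99% of all 27025 genes with a window. The GAS letters TTCNNNGAA, which read the same on both strands, were found in 10 of the 28 members (35.7%), against 9.55% of all genes. A match is a description of these letters and not evidence of binding. Only these exact letters in these windows were searched, so a gene without a match may still have an ISRE or GAS element. The windows are printed for the members with a match and the smallest p-values in the comparison below, up to the annotated start and in the direction of transcription, with the ISRE letters in capitals. Eif2ak2 belonged to the same 6 by p, but its match lay after the start and is not printed.

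Bst2 (chr8:71537473-71537722, minus strand): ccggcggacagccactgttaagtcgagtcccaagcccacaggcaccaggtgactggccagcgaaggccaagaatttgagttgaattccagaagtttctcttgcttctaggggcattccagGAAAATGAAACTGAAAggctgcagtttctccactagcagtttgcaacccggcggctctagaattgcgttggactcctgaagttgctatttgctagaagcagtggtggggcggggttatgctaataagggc

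Ifit1 (chr19:34640639-34640888, plus strand): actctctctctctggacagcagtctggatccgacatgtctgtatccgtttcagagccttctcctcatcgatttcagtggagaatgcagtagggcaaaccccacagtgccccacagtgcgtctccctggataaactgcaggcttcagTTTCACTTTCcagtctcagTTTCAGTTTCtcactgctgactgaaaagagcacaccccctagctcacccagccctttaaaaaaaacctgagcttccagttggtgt

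Irf2 (chr8:46739495-46739744, plus strand): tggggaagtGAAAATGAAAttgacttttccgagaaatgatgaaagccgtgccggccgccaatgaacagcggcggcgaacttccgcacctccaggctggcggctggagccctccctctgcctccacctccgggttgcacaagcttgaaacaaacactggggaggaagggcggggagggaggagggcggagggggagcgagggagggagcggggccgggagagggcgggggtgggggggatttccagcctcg

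Ifit3 (chr19:34583279-34583528, plus strand): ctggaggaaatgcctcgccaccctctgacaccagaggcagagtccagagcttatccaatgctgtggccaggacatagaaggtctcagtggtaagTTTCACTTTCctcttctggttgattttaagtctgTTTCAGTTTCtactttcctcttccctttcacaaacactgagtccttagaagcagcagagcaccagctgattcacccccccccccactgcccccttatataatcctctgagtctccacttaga

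Oas1a (chr5:120907526-120907775, minus strand): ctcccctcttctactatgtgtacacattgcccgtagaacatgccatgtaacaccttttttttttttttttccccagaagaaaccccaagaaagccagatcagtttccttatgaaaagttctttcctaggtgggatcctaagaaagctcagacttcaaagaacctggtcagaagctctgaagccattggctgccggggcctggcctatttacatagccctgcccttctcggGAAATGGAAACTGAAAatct

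In Bst2 and in Oas1a the capitals hold 2 overlapping matches, and in Ifit1 and Ifit3 they hold 2 separate matches on the strand opposite to transcription. Irf2 had a single match near the far end of its window. Among all members Isg15 had the most matches, 3 in a row, each overlapping the next. A GAS match overlapped an ISRE match in Bst2 and in Ifitm3.

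**Figure D1:**
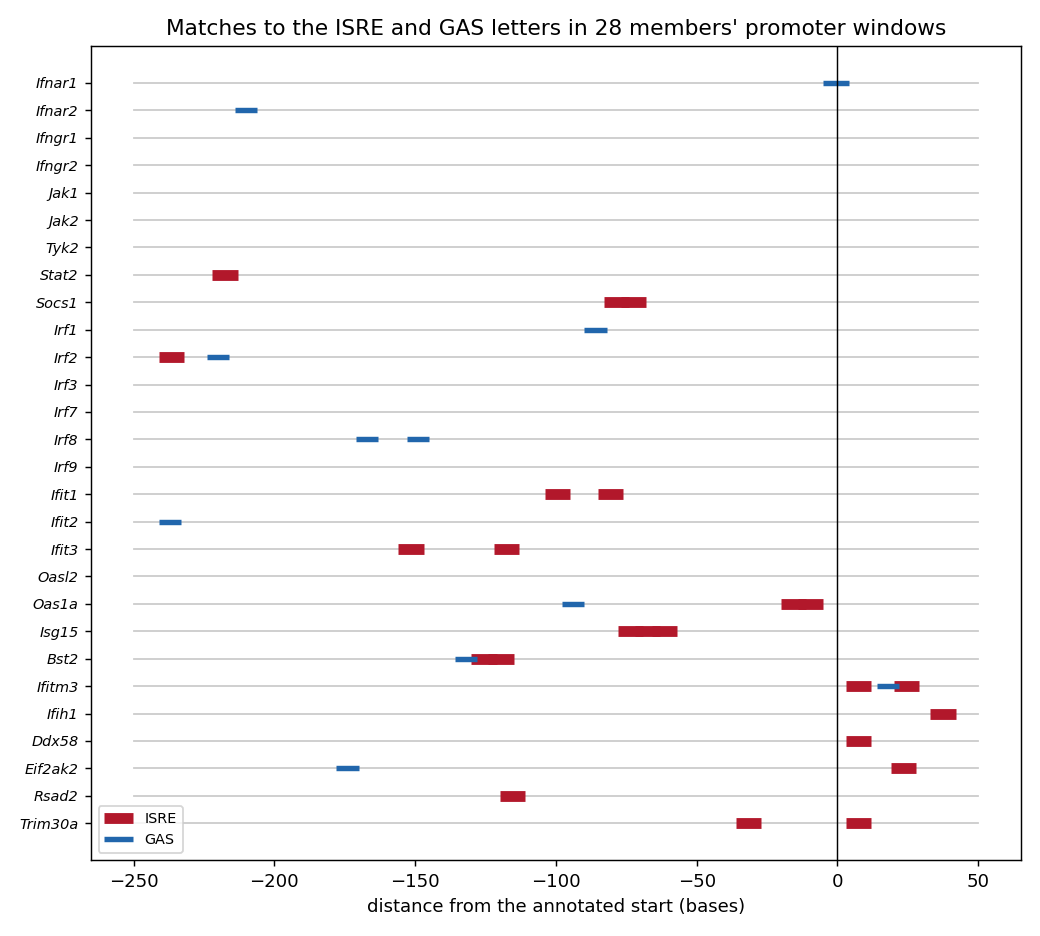
Positions of the ISRE letters (thick red bars) and GAS letters (thin blue bars) along the promoter windows of the 28 members that had one, in bases from the annotated start at 0; grey lines mark the windows, and members with several windows are drawn on 1 line. ISRE matches fall in 11 of 13 effectors and in 3 of 15 signalling genes.

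The libraries held 41623899 to 44882821 counts in stress and 41976809 to 47212982 in non-stress mice. They did not fall by group alone: on principal component 1 of the log2 CPM (counts per 1000000 counts of the library), which held 34.5% of the variance, the stress libraries lay at -14.9 to -20.4, non-stress 1 at -11.7, and non-stress 2 and 3 at 37.4 and 27.4. Messenger RNA of 13 mitochondrial genes made up 2.51% to 2.67% of the counts in stress and 1.76% to 2.40% in non-stress libraries. Markers of cortical excitatory neurons such as Slc17a7 and Tbr1 were present in every library, with 8 marker genes summing to 2021 to 2040 CPM in stress and 1973 to 2135 CPM in non-stress libraries. Non-stress libraries agreed less with each other than stress libraries did. Chi-square per gene was 13.9 to 21 for pairs of non-stress libraries and 4.61 to 6.34 for pairs of stress libraries. The edgeR fit used the same dispersion of a gene for both groups. Across all genes tested by edgeR's quasi-likelihood test, 1 of 19227 passed a Benjamini-Hochberg adjusted p under 0.05 (0.0052%).

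The interferon genes themselves were at or near 0. Of 11 ligand genes looked up (type I, II and III), 9 had 0 counts in all 6 libraries, which allows a level of up to 0.0635 to 0.0721 CPM in a single library. Ifng, the gene for interferon gamma, had 0 counts in each stress library and 2, 0 and 0 counts in non-stress 1, 2 and 3. Ifnz had 2, 2 and 1 counts in the stress libraries and 2, 1 and 1 in the non-stress libraries. None could be tested.

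The receptor chains, Jak1 and Jak2 were among the higher members. Per kb of exon, Ifi27, an interferon-inducible membrane protein gene, had the highest level of the set, at 23.7 ± 0.720 CPM per kb in stress and 25.5 ± 2.56 CPM per kb in non-stress libraries (SD, n = 3 each). The kinase gene Jak1 followed at 23.7 ± 0.110 CPM per kb in stress and 22.9 ± 0.438 in non-stress, and the receptor chain Ifngr2 at 20.3 ± 1.13 and 20.8 ± 0.442. The levels of Ifi27 and Jak1 overlapped within each group. At the low end stood Oasl2 (0.236 ± 0.0226 CPM per kb in stress, 0.346 ± 0.0789 in non-stress) and Trim30a (0.238 ± 0.0611 and 0.245 ± 0.0600), which overlap. The median level was 3.27 CPM per kb over the 15 signalling genes and 0.576 CPM per kb over the 17 effectors tested, and the levels of the 32 tested genes spanned 102-fold. With a median of 97.8 counts a library the effectors were measured less precisely than the signalling genes, with 557.5: the median half-width of the 95% interval of the log2 fold change was 0.375 for effectors and 0.229 for signalling genes. The lowest member, Mx1, did not reach the filter for testing.

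**Figure D2:**
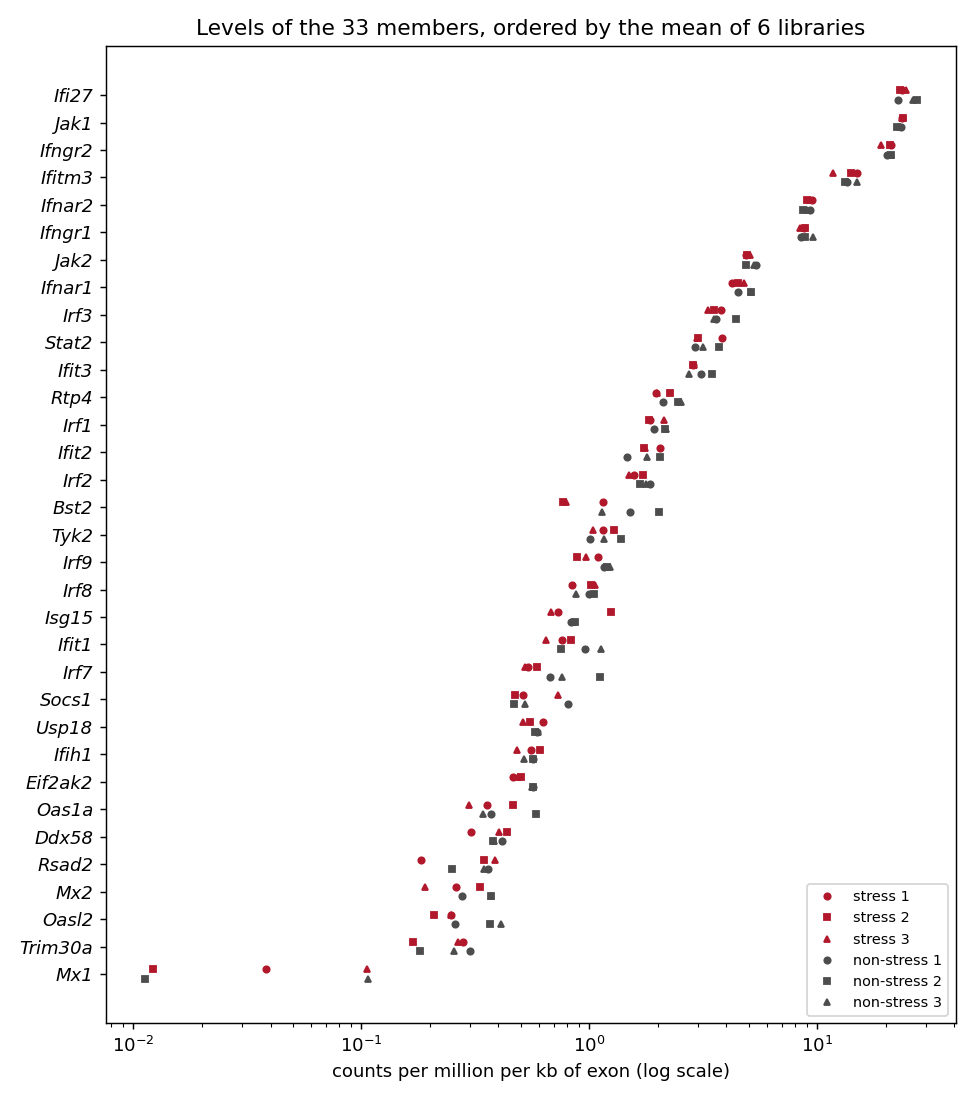
Levels of the 33 members in each library as CPM per kb of exon on a log scale, ordered by the mean of 6 libraries, with stress in red and non-stress in grey and 1 symbol per replicate; a count of 0 (Mx1 in non-stress 1) is not drawn. Jak1 and the receptor chains are among the 8 highest, and 12 of the 18 effectors average below 1 CPM per kb.

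Stress was set against non-stress to ask which genes differ in the ACC after repeated defeat. No member passed edgeR's threshold: 0 of 32 tested members, against 0.0052% of all genes. 4 members had an unadjusted p under 0.05, all with lower values in stress (Irf7, Bst2, Oasl2 and Irf9), which is 12.5% of the members against 6.27% of all genes in that direction. None had one in the higher direction, where the share over all genes was 5.8%. In either direction the share over all genes was 12.1%, and the members' 12.5% is near it. DESeq2's Wald test also called 0 members, with an unadjusted p under 0.05 in 2 of 32. The share over all genes was 6.66%, but of 29717 genes, which include low-count genes left out of the edgeR fit. However, DESeq2 gave 19 of the 32 no adjusted p, among them Irf7, Bst2, Oasl2 and Irf9, and so could not call these. Over all genes it called 0.999% of those with an adjusted p. By limma-voom 0 were called, against 0.0104% of all genes. Most log2 fold changes, stress over non-stress, were below 0, namely 27 of 32 (84.4%, against 50.1% of all genes), with a median of -0.06 against 0.00 over all genes tested, although 15 members changed sign under at least 1 alternative analysis. Counted by whether the 3 stress values and the 3 non-stress values overlap, 4 members lay wholly lower in stress (12.5%, against 9.43% of all genes) and 1 wholly higher (8.43% of all genes), which is near the background.

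For each of the receptor chains, the groups overlapped and the 95% interval held 0. Ifnar1, the chain of the type I receptor that carries TYK2, had 25.2, 26.7 and 28.4 CPM in stress 1, 2 and 3 and 26.8, 30.4 and 30.4 CPM in non-stress 1, 2 and 3. Its groups overlap through stress 3 and non-stress 1, and its log2 fold change was -0.13 (95% interval -0.29 to 0.04; edgeR adjusted p = 0.508). Ifngr1, the chain of the interferon gamma receptor that binds the ligand, had 24.9, 25.1 and 24.0 CPM in stress and 24.2, 25.1 and 27.2 CPM in non-stress libraries. The values of the groups interleave (log2 fold change -0.05, interval -0.19 to 0.10, adjusted p = 0.807). Ifnar2, the other type I chain, and Ifngr2, the other gamma chain, had log2 fold changes of 0.05 and -0.03, and their 95% intervals (-0.08 to 0.18 and -0.15 to 0.09) both lie within 0.2 of 0. The interferon lambda receptor gene Ifnlr1 had 6, 0 and 2 counts in stress and 0, 5 and 2 in non-stress libraries, while its partner Il10rb, which it shares with other cytokines, had a log2 fold change of 0.00.

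Of the Janus kinases, Jak1 had the narrowest interval of the set. Jak1, which serves both receptors, had 170.1, 171.7 and 171.0 CPM in the stress libraries, against 167.8, 162.0 and 166.9 CPM in the non-stress libraries. All stress values lie above all non-stress values, yet the log2 fold change was 0.05 (interval -0.04 to 0.13, adjusted p = 0.636), so the test did not pass. Jak2, the second kinase of the gamma receptor, and Tyk2, the second kinase of the type I receptor, had log2 fold changes of -0.06 and -0.04.

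Of the signal carriers, Stat2 showed one high library in each group. This partner of IRF9 had 22.8, 17.9 and 17.7 CPM in stress 1, 2 and 3 and 17.3, 22.03 and 18.7 CPM in non-stress 1, 2 and 3. Its groups overlap almost wholly (log2 fold change 0.01, interval -0.27 to 0.28, adjusted p = 0.988). Socs1, the feedback inhibitor of Janus kinases, had 1.49, 1.38 and 2.12 CPM in stress and 2.34, 1.36 and 1.53 CPM in non-stress libraries. With 60 to 101 counts a library its interval is wide, from -0.63 to 0.51 around -0.06 (adjusted p = 0.941).

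The interferon regulatory factors all had log2 fold changes below 0, 6 of 6, and held 2 of the 4 members with an unadjusted p under 0.05, although Irf8 had 0.04 after removal of a trend with GC content and length. Irf7, the factor that amplifies type I interferon production and is itself induced by interferon, had 2.04, 2.23 and 1.98 CPM in stress 1, 2 and 3, against 2.55, 4.19 and 2.88 CPM in non-stress 1, 2 and 3. The stress libraries lie close together and below every non-stress library, and non-stress 2 stands well above the other 2. Irf7 averaged 2.09 ± 0.130 CPM in stress and 3.21 ± 0.868 CPM in non-stress libraries, 1.54-fold lower in stress (log2 fold change -0.62, SE 0.20, interval -1.08 to -0.17, unadjusted p = 0.0118, adjusted p = 0.351, edgeR). Without non-stress 2 the log2 fold change was -0.37 (adjusted p = 0.610), and without non-stress 1 it was -0.77 (adjusted p = 0.0578). A stretch of 45 exon bases of Irf7 (chromosome 7, 141263183 to 141266499, GRCm38) is shared with Phrf1 on the opposite strand.

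Irf9, the DNA-binding part of the type I complex, had 5.91, 4.74 and 5.19 CPM in the stress libraries and 6.24, 6.42 and 6.65 CPM in the non-stress libraries. Here the non-stress libraries lie close together, and stress 1 comes nearest to them without reaching them. The means were 5.28 ± 0.590 CPM in stress and 6.44 ± 0.204 CPM in non-stress libraries, 1.22-fold lower in stress (log2 fold change -0.28, SE 0.11, interval -0.54 to -0.03, unadjusted p = 0.0334, adjusted p = 0.388). Irf9 (chromosome 14, 55603985 to 55610030) shares 123 exon bases with Rnf31 on the same strand, so some of its counts could belong to that gene. The other factors were Irf1 and Irf2, an activator and a repressor of the same elements, Irf3, which starts interferon production after nucleic acid sensing, and Irf8, a factor of myeloid cells. Their log2 fold changes were -0.10, -0.14, -0.12 and -0.01, and their groups overlapped. Irf3 shares 88 exon bases with Bcl2l12 on the opposite strand and Irf1 135 with another gene there.

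**Figure D3:**
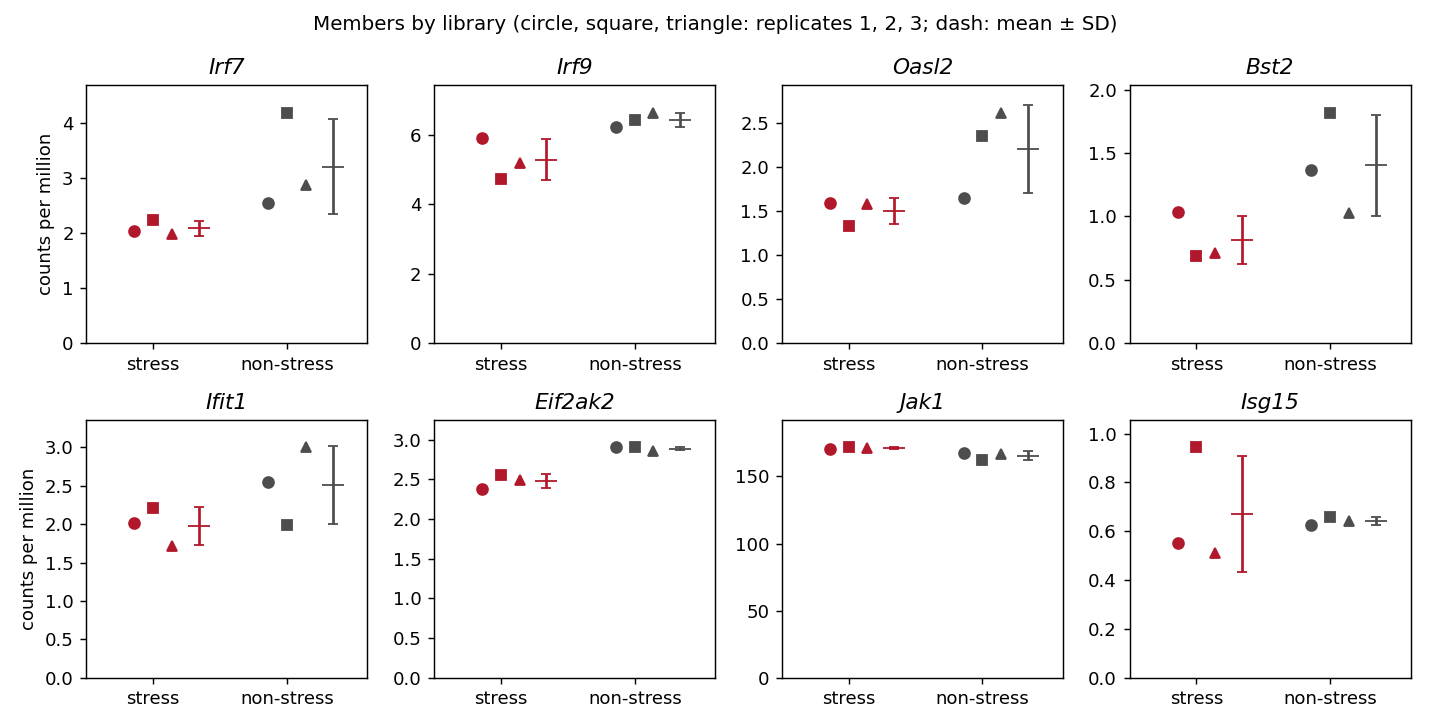
CPM in each library (y axis, starting at 0) of 8 members, with stress in red left of non-stress in grey, 1 symbol per replicate and the mean ± SD of 3 libraries beside them. Irf7, Irf9, Oasl2 and Eif2ak2 have all stress values below all non-stress values, Jak1 has them above, and the groups overlap in Bst2, Ifit1 and Isg15.

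The effectors had a median log2 fold change of -0.10 (-0.16 after removal of the GC and length trend), with 15 of 17 below 0 and 0 past the threshold. The IFIT genes, whose proteins bind foreign RNA and block its translation, gave no common picture. Ifit1 had 2.02, 2.21 and 1.72 CPM in stress and 2.55, 1.99 and 3.00 CPM in non-stress libraries, so that non-stress 2 fell among the stress values (log2 fold change -0.34, interval -0.77 to 0.09, adjusted p = 0.495). Without non-stress 3 the log2 fold change of Ifit1 was -0.20. Ifit3 had 5.00, 4.97 and 5.01 CPM in stress and 5.38, 6.06 and 4.79 CPM in non-stress libraries. The stress values are nearly identical and lie within the range of the non-stress values (log2 fold change -0.12, adjusted p = 0.721). With 208, 216 and 225 counts in stress 1, 2 and 3, the counting error is larger than that spread. Ifit2 had a log2 fold change of 0.05. Ifit3 has a near-identical copy, Ifit3b (log2 fold change 0.00), and Ifit1 has relatives beside it, so reads may have been split between them.

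Oasl2, a member of the oligoadenylate synthetase family that acts after double-stranded RNA is sensed, had 1.59, 1.34 and 1.58 CPM in stress 1, 2 and 3 and 1.65, 2.35 and 2.62 CPM in non-stress 1, 2 and 3. Non-stress 1 sits just above the stress libraries, and the other non-stress libraries stand clear of them. The means were 1.501 ± 0.144 CPM in stress and 2.21 ± 0.503 CPM in non-stress libraries, 1.47-fold lower in stress (log2 fold change -0.55, SE 0.21, interval -1.02 to -0.09, unadjusted p = 0.0235, adjusted p = 0.373). Without non-stress 1 the log2 fold change was -0.73 (adjusted p = 0.0576), the lowest adjusted p of any member under any alternative. Oasl2 lies on chromosome 5 (114896926 to 114912245), and the ISRE letters were not in its window. Oas1a, from the same family and with close copies beside it, had 25 to 38 counts in the stress and 27 to 52 in the non-stress libraries (log2 fold change -0.22, interval -0.89 to 0.45). With a library left out, Oas1a ran from -0.41 without stress 2 to 0.07 without non-stress 2.

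Bst2, which encodes tetherin, a protein that holds budding virus particles at the cell surface, had the lowest log2 fold change of the set. It had 43, 30 and 32 counts in stress 1, 2 and 3 and 59, 86 and 43 in non-stress 1, 2 and 3, which is 1.03, 0.690 and 0.713 CPM and 1.37, 1.82 and 1.02 CPM. Stress 1 lies just above non-stress 3, so the groups overlap at that point. Means of 0.812 ± 0.192 CPM in stress and 1.41 ± 0.400 CPM in non-stress libraries gave a 1.73-fold lower value in stress (log2 fold change -0.80, SE 0.27, interval -1.41 to -0.18, unadjusted p = 0.0164, adjusted p = 0.351). Bst2 is on chromosome 8 (71534255 to 71537472), and its window with 2 overlapping ISRE matches is among those printed above. Ifitm3, which blocks the entry of viruses through membranes, had 7.93 to 10.2 CPM in stress and 8.96 to 10.1 CPM in non-stress libraries (log2 fold change -0.03, interval -0.28 to 0.21).

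The ubiquitin-like modifier Isg15 and the protease Usp18, which removes it from proteins and damps the type I receptor, did not part the groups. Isg15 had 23, 41 and 23 counts in stress and 27, 31 and 27 in non-stress libraries, with the highest value of all in stress 2. Its log2 fold change was 0.06 and its interval, -0.61 to 0.73, leaves changes of either sign possible (adjusted p = 0.951). Usp18 had 1.75, 1.54 and 1.43 CPM in stress and 1.65, 1.61 and 1.67 CPM in non-stress libraries (log2 fold change -0.06, adjusted p = 0.906).

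Among sensors and kinases of foreign RNA, Eif2ak2, which encodes the kinase PKR that stops translation, had 2.38, 2.56 and 2.50 CPM in stress and 2.90, 2.90 and 2.86 CPM in non-stress libraries. The groups did not overlap, with means of 2.48 ± 0.0896 CPM in stress and 2.89 ± 0.0243 CPM in non-stress libraries. Counts were 99, 111 and 112 in stress and 125, 137 and 120 in non-stress 1, 2 and 3. At such counts the counting error is larger than these SDs, so the small spread does not measure precision. The log2 fold change was -0.22 (interval -0.52 to 0.08, unadjusted p = 0.127, adjusted p = 0.515) in edgeR. Eif2ak2 shares 174 exon bases with a lincRNA on the opposite strand, and whether the counting used strand is not stated. The sensors Ifih1 (MDA5) and Ddx58 (RIG-I) had log2 fold changes of -0.01 and -0.04, with overlapping groups.

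The remaining effectors did not differ beyond their spread. Mx2, a gene of the dynamin-like GTPase family, had 39, 52 and 31 counts in stress and 43, 63 and 56 in non-stress libraries (log2 fold change -0.38, interval -0.94 to 0.19, adjusted p = 0.556). For Mx2 it was -0.59 without stress 2 and -0.19 without stress 3. Mx1, its relative, of which most inbred strains including BALB/c carry a defective allele, had 6, 2 and 18 counts in stress and 0, 2 and 17 in non-stress libraries. Replicate 3 of each group held most of the Mx1 counts. Rtp4, an interferon-induced chaperone for receptors, had 4.18, 4.83 and 4.21 CPM in stress and 4.48, 5.23 and 5.38 CPM in non-stress libraries, with stress 2 above non-stress 1 (log2 fold change -0.19, interval -0.47 to 0.09, adjusted p = 0.556). Ifi27, Rsad2 (viperin) and Trim30a had log2 fold changes of -0.10, -0.05 and -0.04. Reads of Trim30a, Mx1, Mx2 and Ifitm3 may be split with near relatives, and Rtp4 and Ifnar2 share 296 and 315 exon bases with another gene on the same strand, and Usp18 and Tyk2 124 and 554 with another on the opposite strand.

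**Figure D4:**
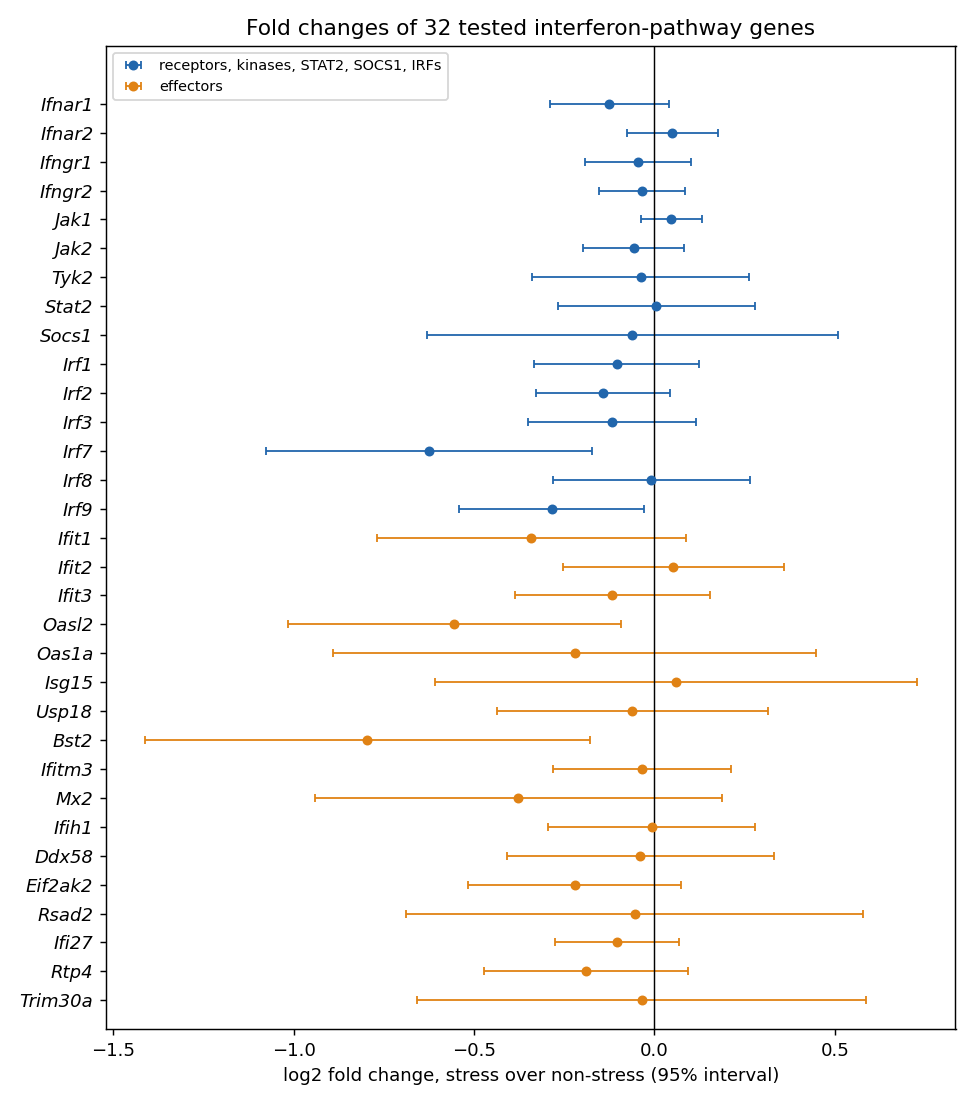
Log2 fold change, stress over non-stress, with its 95% interval for the 32 tested members, signalling genes in blue and effectors in orange. The intervals of Irf7, Irf9, Oasl2 and Bst2 lie below 0 and those of the other 28 hold 0, before any adjustment for multiple tests.

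By library, members had their highest value most often in non-stress 2. Of the 32 tested members, 11 had their highest CPM there (34.4%), against 24.6% of all genes, and 12 of 32 had their lowest in stress 3, against 12.8% of all genes. Relative to the mean of 6 libraries, the median log2 CPM of the signalling genes was -0.02, -0.04 and -0.06 in stress 1, 2 and 3 and -0.01, 0.11 and 0.03 in non-stress 1, 2 and 3. The effectors' medians were -0.12, -0.01 and -0.165 in stress and 0.03, 0.12 and 0.09 in non-stress libraries. Non-stress 1, which lay near the stress libraries over all genes, was also the non-stress library nearest to them here. Leaving it out gave 0 members past the threshold and medians of -0.08 for signalling genes and -0.12 for effectors, although 3.85% of all genes then passed.

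Members with and without the ISRE letters had close medians. The median log2 fold change was -0.06 over 14 members with a match, 12 of them below 0, and -0.05 over 14 members with a window and no match, 11 of them below 0. Of the 14 with a match 11 were effectors, so this split largely follows the split by class. Within the effectors the median was -0.05 over the 11 with a match and -0.25 over the 2 without. Of the 4 members with an unadjusted p under 0.05, Bst2 had the letters in its window and Irf7, Irf9 and Oasl2 did not. Lack of these exact letters does not show that a gene lacks an ISRE.

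The rest of the pathway was looked at through lists of related genes, in which 0 genes passed edgeR's threshold. Of 15 other signalling regulators tested, 8 lay below 0 with a median log2 fold change of 0.00. The feedback inhibitor Socs3 averaged 1.88 ± 0.0930 CPM in stress and 2.55 ± 0.128 CPM in non-stress libraries (log2 fold change -0.44, adjusted p = 0.351), and the STAT inhibitor Pias4 38.9 ± 1.76 and 36.1 ± 0.885 CPM (0.11, adjusted p = 0.464). Of 13 nucleic acid sensing genes 10 lay below 0, among them the adaptor Myd88 (-0.23, adjusted p = 0.423), while the RNA sensor Tlr7 had 0.57 (adjusted p = 0.447). Of 46 other interferon-induced genes 28 lay below 0, with a median of -0.09; Znfx1, a helicase that senses double-stranded RNA, had -0.20 (adjusted p = 0.346), and the ubiquitin ligase Herc6 had 0.28 (adjusted p = 0.386). In that list 2 genes had an unadjusted p under 0.05 in each direction.

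Set beside the gene groups that the same cytokines induce and that were left out of the set, the members stood closer to 0. All 15 tested genes of the list of interferon-inducible GTPases lay below 0, with a median log2 fold change of -0.56. Of them 11 had an unadjusted p under 0.05, against 6.27% of all genes in that direction. A guanylate-binding protein gene that was counted among the other interferon-induced genes is not in this list. Tgtp2 and Tgtp1 had -2.07 and -1.90 (adjusted p = 0.0675 and 0.0944). Among 16 genes of MHC class I and antigen processing the median was -0.19, 14 lay below 0 and 5 had an unadjusted p under 0.05 in that direction, with H2-D1 and H2-K1 at -0.75 and -0.74 (adjusted p = 0.0944 and 0.155). In neither group did a gene pass edgeR's threshold. DESeq2 called 2 of the MHC list and 0 of the GTPases, but it gave 14 of the 15 GTPases no adjusted p, and 6 of the 16 MHC genes. The difference between these groups and the members was not tested. These groups were kept out of the set on purpose, and the lists were chosen with earlier results of these data known. The contrast therefore depends on that choice.

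**Figure D5:**
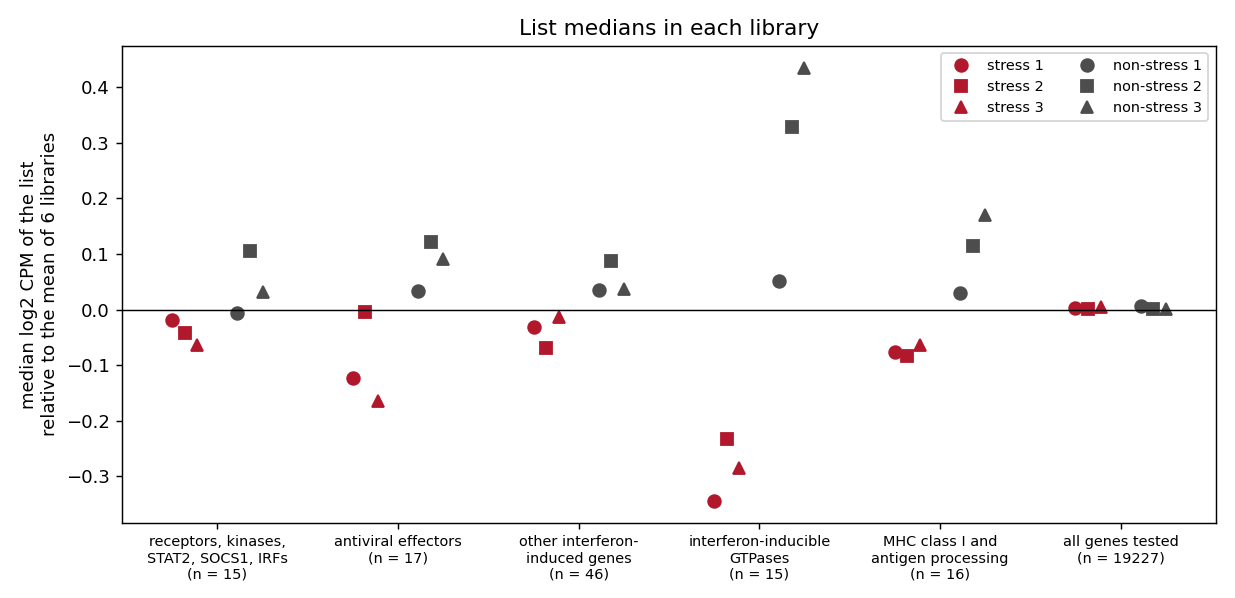
Median log2 CPM of each list in each library, relative to the mean of 6 libraries, with stress in red left of non-stress in grey; n is the number of genes tested. The medians of the GTPases run from -0.345 to 0.44, those of the signalling genes from -0.06 to 0.11, and those of the effectors from -0.165 to 0.12.

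Markers of cell types that express these genes were summed in each library beside the result. Microglia markers (12 genes, 0 of them at 0 throughout) summed to 573.7 to 604.9 CPM in stress and 581.6 to 588.0 CPM in non-stress libraries, and brain endothelial markers (12 genes) to 386.6 to 408.7 and 390.0 to 444.0 CPM, so both overlapped between groups. Markers of leukocytes (13 genes) summed to 10.8 to 11.7 CPM in stress and 12.1 to 13.0 CPM in non-stress libraries. Meningeal markers (8 genes) summed to 258.9 to 259.8 and 268.7 to 282.9 CPM. Neither sum overlapped between groups. The leukocyte sum was mostly Ly6c2 (6.77 ± 0.51 CPM in stress, 7.17 ± 0.29 in non-stress), whose groups overlapped, and Cd74 (2.05 ± 0.40 and 2.725 ± 0.11). Of 5 leukocyte markers tested, 5 had log2 fold changes below 0, and 2 of them, Cd74 and Ccr2, lay wholly lower in stress. Ccr2 had 7, 10 and 10 counts in stress and 16, 14 and 18 in non-stress libraries (log2 fold change -0.80, edgeR adjusted p = 0.418). S100a8, too low to test, had 0 counts in each stress library and 8, 11 and 5 in non-stress 1, 2 and 3. S100a9 had 0, 4 and 0 counts in stress and 0, 6 and 0 in non-stress libraries. The meningeal sum was mostly Ptgds (246.8 ± 0.693 CPM in stress, 267.4 ± 10.9 in non-stress; SD, n = 3 each), and 5 of the 8 meningeal markers had log2 fold changes above 0, with a list median of 0.25. Of the T cell and natural killer cell genes, Cd4 had 16, 46 and 30 counts in stress and 35, 42 and 29 in non-stress libraries. The others were at or near 0: Cd8a and Nkg7 had 0 counts in every library, Cd3g had 0, 5 and 0 counts in stress and 0 in each non-stress library, and Cd3e had 0 in each stress library and 2, 0 and 0 in non-stress 1, 2 and 3. Astrocyte markers summed to 2899 to 2983 CPM in stress and 2910 to 3028 CPM in non-stress libraries. Gfap among them had 549, 544 and 650 counts in stress and 1148, 251 and 199 in non-stress 1, 2 and 3. The neuron marker Cux2 had 461, 400 and 500 counts in stress and 574, 295 and 264 in non-stress 1, 2 and 3. The ependymal markers Ccdc153 and Tmem212 lay wholly lower in stress (log2 fold changes -0.91 and -0.88). The sum of their list overlapped between groups. The part of these markers in the members' values was not tested.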

How the data were processed

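Per the labels' protocols, a SMARTer kit for low RNA input gave the cDNA and TruSeq the libraries. Trimmomatic 0.38, HISAT2 and StringTie were used with GRCm38, per the submitters' processing notes; how reads were counted, with which annotation and with or without strand, is not stated there. The authors deposited whole-number counts per gene, which were used unchanged, with totals of 41623899 to 47212982.

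Of 45777 genes, filterByExpr kept 19227. They were scaled by TMM and tested by edgeR 4.0.16 (R 4.3.3) with its quasi-likelihood test, two-sided, with group as the single term and Benjamini-Hochberg adjustment over all 19227. Standard errors and 95% intervals of log2 fold changes came from the fitted weights and the posterior dispersion. CPM are counts per 1000000 counts of the library. Exon lengths came from GENCODE M21 (GRCm38), and gene positions and promoter sequences from RefSeq (GRCm38.p6). For counts of 0 the limit given is 3 counts of the library, for counting error only.

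The members and gene lists were chosen with earlier results of these data known. Values in every library are given for members with an unadjusted p under 0.05, the member of smallest p in each of 11 roles, and Stat2, Irf9, Irf7, Isg15, Ifit3, Ifnar1 and Ifngr1. From each other list the 2 genes of smallest p are named; a gene that the rule also named is not reported here. The alternatives were other size factors, other filters, DESeq2 1.42.0, limma 3.58.1 (voom), a replicate block, removal of a trend with exon GC content and length, and each library left out in turn. The edgeR step was tested on simulated data.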

Additional observations from a re-analysis of the deposited data

How the results depend on the processing

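No member passed the threshold in edgeR under any alternative fit, by DESeq2 or by limma-voom, and the lowest adjusted p of a member was 0.0576. DESeq2 gave 19 of the 32 members no adjusted p, among them Irf7, Irf9, Oasl2 and Bst2, so it could not call these. The medians of signalling genes and of effectors moved by less than the spread between libraries under every alternative, and stayed below 0. The count over all genes, 1 in the reported fit, was 107 by DESeq2, 2 by limma-voom, 2 with the replicate block, 3 with the trend on GC content and transcript length taken out, and 1 to 756 with a library left out, the highest without non-stress 1.

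Same-numbered libraries of the groups did not deviate together (correlations of 0.016, -0.0298 and 0.0209). The labels do not say that the replicate numbers pair the samples, and so few libraries cannot decide it. The replicate block called 0 members, with an unadjusted p under 0.05 in 3 of 32, against 11.3% of all genes. A filter of 50 counts in 3 libraries left 28 of the 32 members to test.

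Of 32 members 17 kept their sign under all alternatives, 15 of them lower in stress. 15 changed sign in at least 1 fit, all of them within 0.221 of 0 in the reported fit; the cause was not tested. With the trend taken out, these were Ifit2 (-0.0080), Ifngr2 (0.0027), Irf8 (0.0428), Isg15 (-0.0239), Socs1 (0.0373) and Tyk2 (0.0627); with at least 50 counts in 3 libraries, Ifih1 (0.0004); with limma-voom, Stat2 (-0.0029). With a library left out, those that changed sign had these ranges of log2 fold change: Ddx58 (-0.1475 to 0.0970), Ifih1 (-0.0866 to 0.0772), Ifit2 (-0.0683 to 0.1788), Ifitm3 (-0.1149 to 0.0636), Ifngr1 (-0.0840 to 0.0017), Ifngr2 (-0.0623 to 0.0126), Irf8 (-0.0826 to 0.0851), Isg15 (-0.2668 to 0.2224), Oas1a (-0.4083 to 0.0720), Rsad2 (-0.2608 to 0.2022), Socs1 (-0.2748 to 0.2099), Stat2 (-0.1255 to 0.1175), Trim30a (-0.2128 to 0.1644), Tyk2 (-0.1424 to 0.0980) and Usp18 (-0.1469 to 0.0065).

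Precision limits all members: half-widths of the 95% intervals ran from 0.085 to 0.67 on the log2 scale, with medians of 0.375 for effectors and 0.229 for signalling genes.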
